A study of Mus musculus with 6 samples.

Results

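Keratin genes were taken as the rows of the deposited expression table whose symbol is Krt followed by a number and at most 1 letter, which leaves out the keratin-associated Krtap genes. Of 47 such rows among 18227 genes, 30 had at least 10 counts summed over the 6 libraries and are described here. The 17 others had sums of 1 to 9. Krt33a and Krt77, with a sum of 10 each, lay just inside this minimum, and Krt42, with a sum of 9, lay just outside. RNA was sequenced from corneas of 6-week-old male C57BL/6 mice kept specific pathogen free. There were 3 libraries from Muc13 knockout (Muc13-/-) mice, called KO 1 to 3, and 3 from wild-type mice, called WT 1 to 3. Muc13 encodes a transmembrane mucin of epithelial surfaces. The labels do not say which part of Muc13 was deleted or whether each library came from 1 mouse or several, so p-values measure only the spread between these libraries, which may be technical.

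Keratins are the intermediate filament proteins of epithelial cells. A type I (acidic) keratin and a type II (basic) keratin assemble as obligate partners, and the partners present change with the kind of epithelium and with the layer of cells in it. Krt12 is the type I keratin that marks the corneal epithelium, where it is found with the type II keratin Krt5, and mutations of human KRT12 cause Meesmann corneal dystrophy, a fragility of that epithelium. Krt5 is also the basal-layer keratin of stratified epithelia, with Krt14 as its usual partner there. Of the 30 genes, 16 encode type I and 14 type II keratins. In GRCm38 (mm10), 15 lie on chromosome 11 and 15 on chromosome 15, the type I gene Krt18 being the exception that sits beside the type II genes on chromosome 15.

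The libraries held 1.41e+07 to 1.55e+07 counts. They differed in the levels of markers of several eye tissues. The 18 retina markers summed to 23527 to 40889 CPM (counts per 1e+06 counts, scaled between libraries by TMM) in KO 1 to 3 and WT 3, but to 79.7 CPM in WT 1 and 286 CPM in WT 2. The 12 corneal epithelium markers other than keratins were highest in WT 1 and WT 2, at 50674 and 39415 CPM together, lower in KO 1, KO 2 and WT 3 (14021 to 18311 CPM) and lowest in KO 3 (6123 CPM). The 17 lens markers were highest in KO 2 and WT 3, at 89921 and 43869 CPM, against 399 and 3803 CPM in KO 3 and KO 1 and 213 and 5570 CPM in WT 1 and WT 2. The 14 skeletal muscle markers set WT 1 and WT 2 apart, at 4878 and 3853 CPM, from KO 1 to 3 (117 to 1153 CPM) and WT 3 (387 CPM). Muc13 itself was low throughout, with counts of 9, 4 and 2 for KO 1 to 3 against 18, 21 and 9 for WT 1 to 3, so its groups met at 9.

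Krt12 and Krt5 were the most abundant keratins in every library. The promoters of these genes are shown for that reason, and a link between promoter sequence and level was not tested. Each line gives the 250 bases before the RefSeq transcription start in GRCm38.p6, on the minus strand, for chr11:99422260-99422509 (Krt12) and chr15:101712906-101713155 (Krt5). Capitals mark every match to TATAAA, the TATA box, and to CACCC, the core of sites bound by KLF factors, on either strand.
Krt12: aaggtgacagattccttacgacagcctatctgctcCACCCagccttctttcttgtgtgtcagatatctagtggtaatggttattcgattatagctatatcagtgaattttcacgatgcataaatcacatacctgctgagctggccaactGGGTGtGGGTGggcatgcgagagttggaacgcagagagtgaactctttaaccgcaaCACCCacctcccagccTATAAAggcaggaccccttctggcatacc
Krt5: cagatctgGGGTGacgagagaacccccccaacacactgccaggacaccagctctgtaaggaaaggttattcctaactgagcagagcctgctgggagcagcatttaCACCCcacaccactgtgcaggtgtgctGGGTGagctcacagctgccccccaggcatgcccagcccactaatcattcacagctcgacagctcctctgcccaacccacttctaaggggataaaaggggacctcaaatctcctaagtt
The Krt12 window held 4 matches to CACCC and 1 to TATAAA, which begins 29 bases before the start, and the Krt5 window held 3 matches to CACCC and none to TATAAA. Of the 30 keratins, 16 had a RefSeq start within 50 bases of the GENCODE gene start. CACCC was found in 12 of these 16 windows and in 52.0% of 32851 windows of the same length over all genes. TATAAA was found in 6 of the 16 and in 12.4% of all. The AP-1 site TGANTCA was found in 1 of the 16, Krt13, and in 6.75% of all. These are matches of letters, not measured binding.

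Krt12 (ENSMUSG00000020912, protein coding, chromosome 11, 99415666 to 99422259) was at 12672, 11626 and 1346 CPM in KO 1 to 3 and at 42075, 31172 and 10001 CPM in WT 1 to 3. WT 1 and WT 2 were highest and KO 3 was lowest by far, while WT 3 lay below KO 1 and KO 2, so the groups overlapped. Knockout libraries averaged 8548 ± 6259 CPM and wild-type libraries 27749 ± 16309 CPM (SD, n = 3 each). On the log2 scale the fold change was −1.70 (SE 1.07; edgeR quasi-likelihood test, adjusted p = 0.501), a difference within the spread between libraries. Against WT 3 alone, without WT 1 and WT 2, it was −0.23 (SE 1.45), and without KO 3 it was −1.19 (SE 0.847). In these libraries, fewer epithelial cells, less keratin RNA per cell and more RNA from other eye tissues cannot be told apart.

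Krt5 (ENSMUSG00000061527, chromosome 15, 101707070 to 101712898) was at 8781, 7858 and 1223 CPM in KO 1 to 3 and at 25606, 21572 and 6616 CPM in WT 1 to 3. Its libraries fell in the same order as those of Krt12. On the log2 scale the fold change was −1.59 (SE 0.977, adjusted p = 0.501 in the same fit). Per length, on the TPM scale (transcripts per 1e+06 transcripts), Krt5 stood at 56.7%, 55.3% and 74.4% of Krt12 in KO 1 to 3 and at 49.9%, 56.7% and 54.2% in WT 1 to 3. Thus Krt12 varied 31.3-fold from the highest library to the lowest, and Krt5 20.9-fold, but the count ratio between them varied 1.49-fold, and 1.14-fold without KO 3. Counts of Krt5 were not whole in 4 libraries, as when reads are divided between similar genes, so small differences in this ratio are uncertain.

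Ordered by mean TPM over the libraries, Krt12 stood at 13810, Krt5 at 7523, Krt6a at 1614, Krt6b at 1492, Krt15 at 1328, Krt13 at 800.4, Krt14 at 299.7 and Krt4 at 139. Krt12 was above Krt5, and Krt5 above Krt6a, in 6 of 6 libraries. Krt6a and Krt6b did not keep their order (Krt6a higher in 4 of 6), nor did Krt6b and Krt15 (4 of 6). From Krt15 through Krt13 and Krt14 to Krt4, each was above the next in 6 of 6 libraries. Below these, Krt80 was at 109, Krt18 at 83.0 and Krt19 at 73.3 TPM, and Krt18 and Krt19 changed places between libraries. Another 11 tested genes lay between 2.24 TPM (Krt90) and 21.6 TPM (Krt78).

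**Figure D1:**
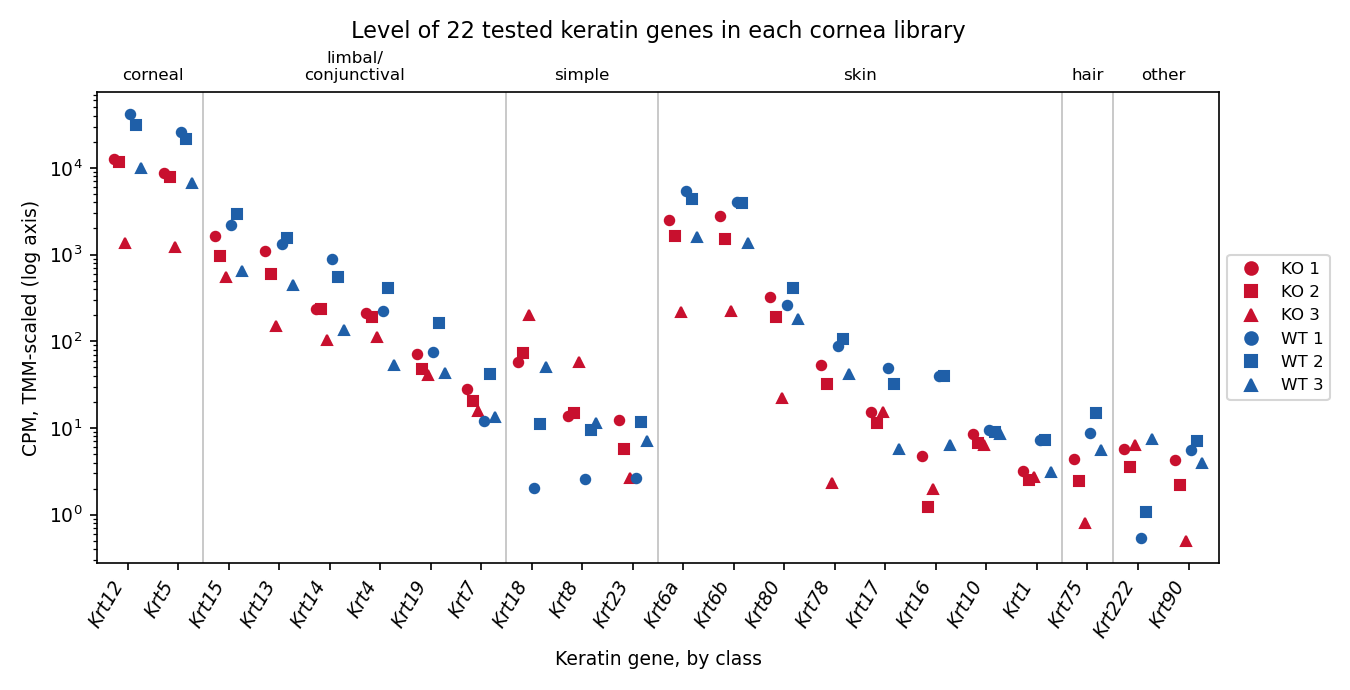
Level of the 22 tested keratin genes in each library, in TMM-scaled CPM on a log axis, grouped by class; red points are KO 1 to 3 and blue points WT 1 to 3, with 1 point per library and no averaging. WT 1 and WT 2 are at the top and KO 3 at the bottom for Krt12 and Krt5, while KO 3 is at the top for Krt18 and Krt8.

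Of the 30 genes, 22 passed the filter on low counts. None of them passed an adjusted p of 0.05 with edgeR, where 0% of 14983 genes did, and no keratin had an adjusted p below 0.501. Before adjustment, Krt16 and Krt75 (2 genes) had p under 0.05, as did 4.38% of all genes tested. The DESeq2 Wald test called 1 keratin, Krt16, and 0.445% of all genes. The fold change lay below 0 in 19 of the 22 and above 0 in 3, against 48.5% below 0 over all genes tested, and the median was −0.95 for the keratins and 0.02 for all genes. Both corneal keratins, all 6 limbal or conjunctival keratins and all 8 tested skin keratins lay below 0. Without WT 1 and WT 2 the split was 13 below and 11 above among 24 tested, and the median was −0.02. In Krt18 and Krt8 every knockout library lay above every wild-type library, where 4.71% of all genes tested did so. In Krt16 and Krt75 every knockout library lay below every wild-type library, where 5.51% did so.

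The question put by the ratio to Krt12 was which keratins kept pace with the corneal keratin from library to library. With each library scaled to its Krt12 count, none of 21 keratins passed an adjusted p of 0.05 with edgeR, where 0% of 14982 genes did. At an unadjusted p under 0.05 there were 2, Krt18 and Krt8, where 11% of all genes did. The fold change relative to Krt12 was above 0 in 18 of the 21, but 99.5% of all genes were, and its median was 1.56 for the keratins and 2.56 for all genes. KO 3 had the lowest Krt12. Without KO 3 the medians were 0.47 for the keratins and 0.65 for all genes. The ratio lay higher in every knockout than in every wild-type library for 3 of the 21, Krt13, Krt4 and Krt7, where 4.44% of all genes did so, and lower for none, where 0.0267% did so.

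**Figure D2:**
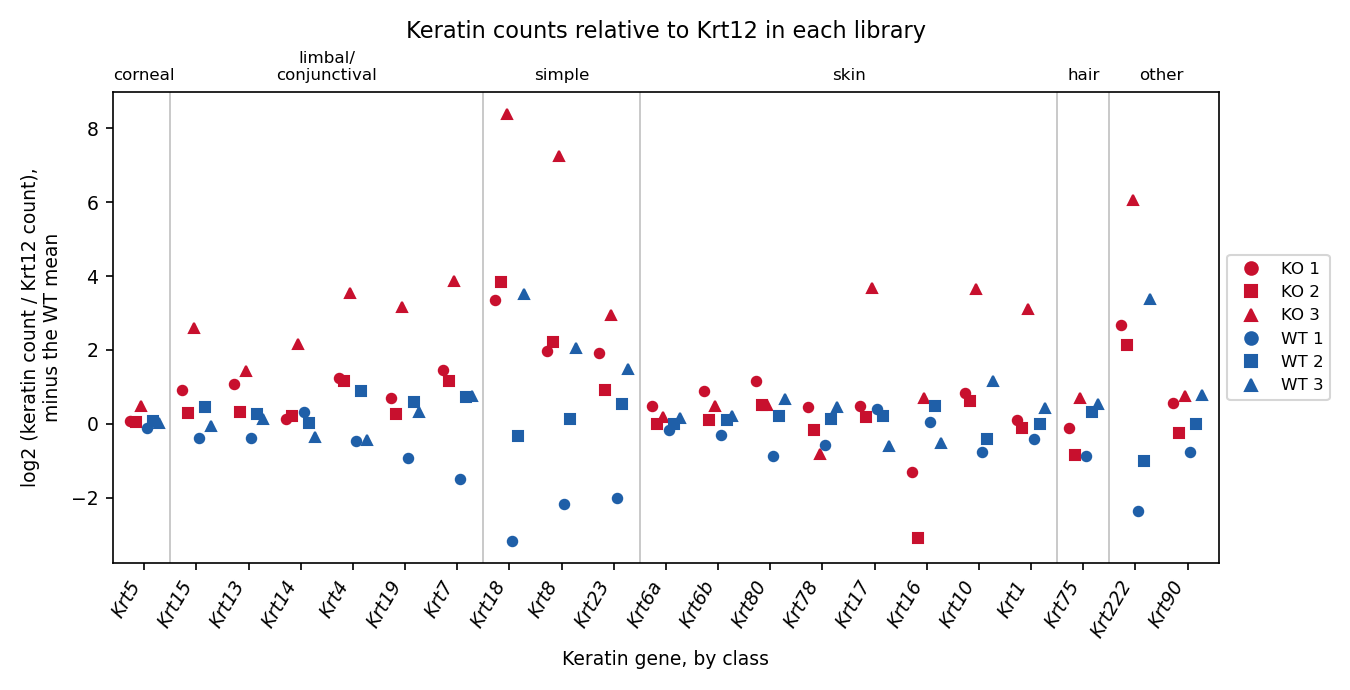
Count of each keratin divided by the count of Krt12 in the same library, on a log2 scale and shown as the difference from the wild-type mean; red points are KO 1 to 3 and blue points WT 1 to 3. Krt5 and Krt6a stay within 0.63 on this scale across all libraries, while Krt18, Krt8 and Krt222 spread over 8.43 or more with KO 3 highest.

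Krt6a and Krt6b are type II keratins of suprabasal and appendage epithelium that are strongly induced in wounded epidermis, and they were counted with the skin types. By mean TPM they came next after Krt12 and Krt5, and their ratios to Krt12 varied little between libraries. Krt6a was at 2513, 1646 and 219 CPM in KO 1 to 3 and at 5379, 4403 and 1598 CPM in WT 1 to 3. Krt6b was at 2777, 1502 and 225 CPM in KO 1 to 3 and at 4086, 3958 and 1374 CPM in WT 1 to 3. Both groups overlapped, with log2 fold changes of −1.38 (SE 0.969) and −1.06 (SE 0.962). The log2 ratio to Krt12 of Krt6a was −2.59 ± 0.245 in the knockout and −2.81 ± 0.161 in the wild type, and that of Krt6b was −2.57 ± 0.381 and −3.07 ± 0.263 (SD, n = 3 each). Across all libraries these ratios varied 1.55-fold and 2.26-fold.

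The TPM of Krt6b relative to Krt6a was 1.13, 0.933 and 1.05 in KO 1 to 3 against 0.776, 0.919 and 0.879 in WT 1 to 3. The knockout values lay above the wild-type values, with KO 2 and WT 2 nearly equal. This ratio is uncertain, since counts of both genes were not whole in 6 of 6 libraries and the rule for dividing reads was not stated. The coding sequences of the 2 genes (GENCODE M21, 1659 and 1662 bases) differ at 37 of 1659 aligned bases, an identity of 97.8%, and share an unbroken identical run of 280 bases. The 180-base stretch with the most differences, coding bases 697 to 876 in both, is shown. Reads that cover its differing bases can be told apart, and reads from its identical parts alone cannot. Capitals mark the 19 bases that differ.
Krt6a: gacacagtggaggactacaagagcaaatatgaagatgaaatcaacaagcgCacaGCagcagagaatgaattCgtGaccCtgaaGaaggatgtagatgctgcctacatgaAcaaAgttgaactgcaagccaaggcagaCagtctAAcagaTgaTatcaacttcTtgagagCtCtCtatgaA
Krt6b: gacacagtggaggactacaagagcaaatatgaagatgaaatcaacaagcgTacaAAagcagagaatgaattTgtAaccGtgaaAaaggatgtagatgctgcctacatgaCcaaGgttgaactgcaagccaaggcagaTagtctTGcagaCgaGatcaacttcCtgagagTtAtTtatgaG
Krt6a lies at 101689910 to 101694307 and Krt6b at 101676023 to 101680287 on chromosome 15, on the same strand. Krt5 is less alike, with 83.6% coding identity to Krt6a and a longest identical run of 140 bases.

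Among the limbal and conjunctival types, the ratio to Krt12 was less steady than in Krt6a and Krt6b and was highest in KO 3. This was not particular to these types, since KO 3 had the lowest Krt12. Among tested keratins of other classes, all but Krt6a, Krt6b, Krt78, Krt80 and Krt90 also had their highest ratio in KO 3. Across all libraries the ratio varied 21.1-fold for Krt10 and 19.5-fold for Krt17. Krt15, a type I keratin of basal cells that is used as a marker of the limbus, was at 1627, 964 and 555 CPM in KO 1 to 3 and at 2188, 2918 and 653 CPM in WT 1 to 3. WT 2 was highest and KO 3 lowest, with the groups overlapping (log2 fold change −0.87, SE 0.704). As a share of Krt12 TPM, Krt15 stood at 14.2%, 9.18% and 45.6% in KO 1 to 3 and at 5.76%, 10.4% and 7.24% in WT 1 to 3. KO 3 alone stood apart, and the ratio varied 7.92-fold with KO 3 and 2.47-fold without it. An exact permutation test of the ratio (two-sided) gave p = 0.2, and with 3 libraries a group no p below 0.1 is possible.

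Krt14, the basal partner of Krt5, was at 236, 233 and 103 CPM in KO 1 to 3 and at 898, 547 and 135 CPM in WT 1 to 3. The log2 fold change was −1.46 (SE 0.743). Its TPM came to 0.0365, 0.0402 and 0.114 of that of Krt5 in KO 1 to 3, and to 0.0475, 0.0343 and 0.0276 in WT 1 to 3. Krt14 was therefore scarce beside Krt5 in every library, and least so in KO 3. Without WT 1 and WT 2 the fold change turned to 0.49 (SE 0.570), and that of Krt15 to 0.68 (SE 0.760).

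Krt4 and Krt13 are the partners of mucosal stratified epithelium, conjunctiva included. Krt13 was at 1107, 599.5 and 151 CPM in KO 1 to 3 and at 1322, 1542 and 447 CPM in WT 1 to 3. Krt4 was at 214, 188 and 113 CPM in KO 1 to 3 and at 221, 415 and 53.7 CPM in WT 1 to 3. In CPM the groups of both overlapped, with log2 fold changes of −0.83 (SE 0.834) and −0.42 (SE 0.725). Without WT 1 and WT 2 these turned to 0.46 (SE 1.15) and 1.68 (SE 0.464), and that of Krt4 turned to 0.32 (SE 0.693) without WT 2 alone. Relative to Krt12 the groups of both genes did not overlap, but KO 2 and WT 2 lay close. Their log2 ratios were −4.28 and −4.34 for Krt13 and −5.95 and −6.23 for Krt4. The log2 ratio of Krt13 was −3.65 ± 0.570 in the knockout and −4.60 ± 0.344 in the wild type, and that of Krt4 was −5.13 ± 1.35 and −7.11 ± 0.763 (SD, n = 3 each). The exact permutation p was 0.1 for each, the smallest possible, and in the edgeR fit relative to Krt12 the adjusted p was 0.548 for Krt13 and 0.216 for Krt4. The difference in log2 ratio went from 0.95 to 0.71 for Krt13 and from 1.98 to 1.20 for Krt4 when KO 3 was left out.

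Krt7, a type II keratin of simple and conjunctival epithelium, was the third gene with this pattern. It was at 27.8, 20.7 and 15.6 CPM in KO 1 to 3 and at 12.1, 41.7 and 13.4 CPM in WT 1 to 3, with log2 ratios to Krt12 of −8.83, −9.13 and −6.43 in the knockout and of −11.76, −9.54 and −9.54 in the wild type. Krt19, a type I keratin of conjunctiva and limbus, was at 70.7, 47.7 and 41.2 CPM in KO 1 to 3 and at 75.4, 161 and 42.8 CPM in WT 1 to 3. Of the 11 listed markers of conjunctiva and glands, 7 were in the table, and Muc5ac, which marks conjunctival goblet cells, was not among them. The 7 summed to 60.5 to 66.5 CPM in the knockout and to 58.0 to 99.2 CPM in the wild type, most of it Scd1, at 44.8 to 92.3 CPM. The goblet cell genes Spdef and Foxa3 were at or below 0.499 CPM in every library, and Tff3 was at or below 0.0623 CPM. Agr2 was at 1.68 to 3.62 CPM and Ltf reached 16.8 CPM in WT 2, with the groups of both overlapping. Awat2 was higher in every knockout than in every wild-type library, with a log2 fold change of 1.06 (SE 0.464, adjusted p = 0.501 in edgeR). The part of conjunctival and gland tissue in the ratios to Krt12 was not tested.

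**Figure D3:**
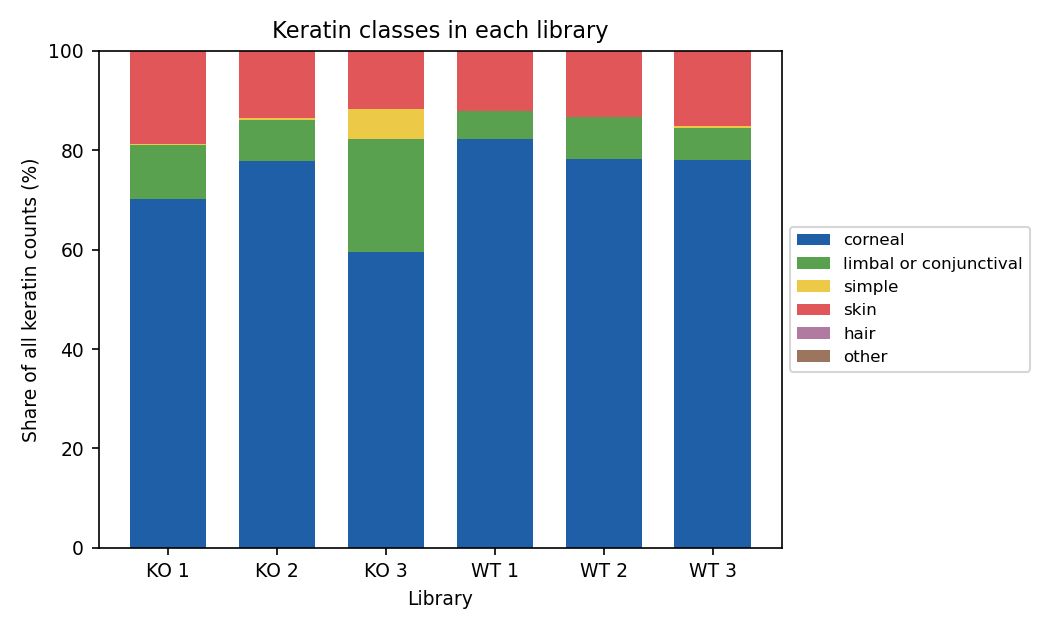
Share of all keratin counts held by each keratin class in each library, in percent, with bars stacked to 100. The corneal class holds 70.3% to 82.2% in 5 libraries and 59.6% in KO 3, where the limbal or conjunctival class reaches 22.7% and the simple class 6.06%; the hair and other classes, at most 0.0319% and 0.177%, are too small to see.

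All 30 keratins took 3.27%, 2.50% and 0.482% of the counts of KO 1 to 3 and 6.84%, 6.27% and 2.29% of those of WT 1 to 3. Within this total the corneal class held 70.3%, 77.8% and 59.6% in KO 1 to 3 against 82.2%, 78.3% and 78.1% in WT 1 to 3. The limbal or conjunctival class held 10.8%, 8.20% and 22.7% in KO 1 to 3 against 5.73%, 8.34% and 6.33% in WT 1 to 3. The skin class held 11.5% to 18.7% and 12.1% to 15.1%, most of it Krt6a and Krt6b. The balance of type II to type I keratins, as summed TPM, stayed between 0.585 in KO 3 and 0.727 in KO 1 and overlapped between the genotypes.

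Krt18 and Krt8, the partners of simple epithelium, went the other way from Krt12. They are also known from corneal endothelium and retinal pigment epithelium. Krt18 (ENSMUSG00000023043, chromosome 15, 102028180 to 102032027) was at 57.7, 73.8 and 201 CPM in KO 1 to 3 and at 2.02, 11.0 and 50.5 CPM in WT 1 to 3. Every knockout library was above every wild-type library, but KO 1 and WT 3 were close, and WT 1 and WT 2 were low. The means were 111 ± 78.6 and 21.2 ± 25.8 CPM (SD, n = 3 each), with a log2 fold change of 2.39 (SE 1.18, adjusted p = 0.501). It was 1.15 (SE 0.887) without WT 1 and WT 2, 4.08 (SE 1.01, adjusted p = 0.0345 in edgeR) without WT 3, and 1.63 (SE 1.25) without KO 3. In the fit without WT 3, 21.1% of all genes tested passed as higher in the knockout.

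Krt8 (ENSMUSG00000049382, chromosome 15, 101996698 to 102004482) was at 13.7, 15.1 and 57.5 CPM in KO 1 to 3 and at 2.57, 9.45 and 11.5 CPM in WT 1 to 3. Its log2 fold change was 1.87 (SE 0.819, adjusted p = 0.501), and 0.88 (SE 0.677) without KO 3. Per length, Krt8 came to 0.140 to 0.196 of the TPM of Krt18 in KO 1 to 3 and WT 3, and to 0.872 and 0.591 in WT 1 and WT 2. Relative to Krt12, the difference in log2 ratio was 5.20 for Krt18 and 3.81 for Krt8, and 3.60 and 2.09 without KO 3. The groups of both ratios overlapped, since WT 3 lay within the knockout values, and the exact permutation p was 0.2 for each.

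Of the other eye tissues, the iris and melanocyte list was, like Krt18, lowest in WT 1 and highest in KO 3. The 8 iris and melanocyte markers together reached 937, 1823 and 6584 CPM in KO 1 to 3 and 13.8, 431 and 2786 CPM in WT 1 to 3, but WT 3 lay above KO 1 and KO 2. Rpe65, the visual cycle enzyme of the pigment epithelium, was at 33.5, 51.1 and 145 CPM in KO 1 to 3 and at 0.156, 4.41 and 15.9 CPM in WT 1 to 3. Rlbp1, also on the retina list, was at 286, 195 and 438 CPM in KO 1 to 3. In WT 1 to 3 Rlbp1 was at 0.933, 11.6 and 213 CPM, so WT 3 lay above KO 2 and its groups overlapped, unlike those of Rpe65. The 7 corneal endothelium markers summed to 1241 to 1653 CPM in the knockout and to 797, 1041 and 1744 CPM in WT 1 to 3, so that WT 3 was highest, unlike in Krt18 and Krt8. The retina sum was likewise higher in WT 3 than in KO 2 and KO 3. The part of these tissues in the Krt18 and Krt8 levels was not tested. Krt23, a type I keratin put with the simple class, did not share the pattern, at 12.3, 5.67 and 2.65 CPM in KO 1 to 3 against 2.65, 11.7 and 7.17 CPM in WT 1 to 3 (log2 fold change −0.06, SE 0.766).

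**Figure D4:**
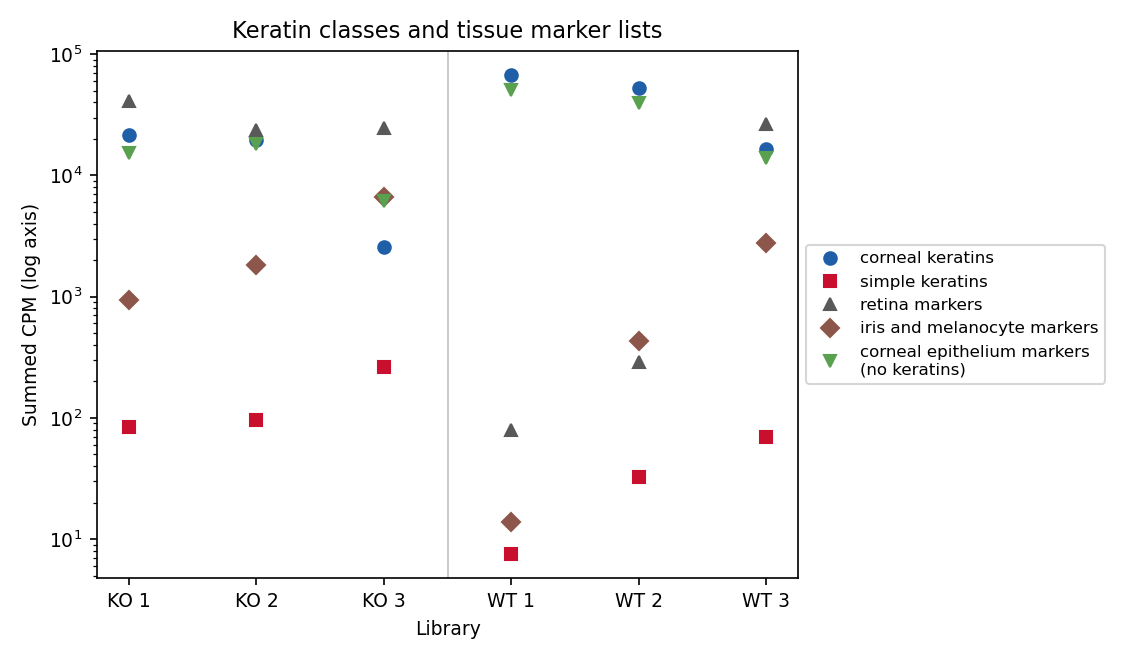
Summed CPM, on a log axis, of the corneal and simple keratin classes and of the retina, iris and melanocyte, and keratin-free corneal epithelium marker lists, with 1 point per library. The corneal keratins are lowest in KO 3 (2569 CPM) and highest in WT 1 (67680 CPM), as are the other epithelium markers, and the simple keratins (7.55 CPM in WT 1 to 261 CPM in KO 3) are, like the iris and melanocyte list, lowest in WT 1 and highest in KO 3.

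Of the remaining skin types, Krt16 had the smallest p. Krt16 is a type I keratin that pairs with the Krt6 proteins in wounded and appendage epithelium. Krt16 (ENSMUSG00000053797, chromosome 11, 100246091 to 100248902) was at 4.71, 1.22 and 1.97 CPM in KO 1 to 3 and at 39.8, 40.1 and 6.36 CPM in WT 1 to 3. The groups did not overlap, but KO 1 and WT 3 differed by 1.65 CPM, while WT 1 and WT 2 were far above both. Its fold change on the log2 scale came to −3.45 (SE 0.904, adjusted p = 0.501 in edgeR and 0.0230 in the DESeq2 Wald test). Over alternatives that kept all 6 libraries or left out 1, its fold change ran from −4.16 to −3.08, and it was −1.27 (SE 0.798) without WT 1 and WT 2.

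Relative to Krt12 the Krt16 groups overlapped. The log2 ratio was −11.38, −13.18 and −9.39 in KO 1 to 3 against −10.05, −9.60 and −10.61 in WT 1 to 3, so KO 1 and KO 2 lay below every wild-type library and KO 3 above. The TPM of Krt16 was at most 0.0142 of that of Krt6a, its partner, in any library. Its counts were not whole in 2 libraries, and its coding sequence is 86.7% identical to that of Krt14, with a longest identical run of 134 bases.

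Krt17, another type I keratin of appendages and injured epithelium, was at 15.4, 11.6 and 15.1 CPM in KO 1 to 3 and at 48.8, 31.8 and 5.74 CPM in WT 1 to 3. Its wild-type libraries lay on both sides of the knockout values (log2 fold change −1.04, SE 0.727; 1.29, SE 0.343, without WT 1 and WT 2). Krt80 and Krt78, type II keratins of stratified epithelium, were lowest in KO 3, at 22.1 and 2.34 CPM, and reached 412 and 107 CPM in WT 2. Their log2 fold changes were −0.68 (SE 0.909) and −1.42 (SE 1.02). Relative to Krt12, Krt78 varied 2.41-fold over all libraries and so stayed close to the corneal keratin over a 45.6-fold range of its own level.

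The epidermal pair of differentiation, Krt1 and Krt10, was low beside these. Krt1 was at 3.18, 2.50 and 2.71 CPM in KO 1 to 3 and at 7.31, 7.25 and 3.12 CPM in WT 1 to 3, with a log2 fold change of −1.07 (SE 0.454). Krt10 was at 8.62, 6.76 and 6.41 CPM in KO 1 to 3 and at 9.49, 8.95 and 8.60 CPM in WT 1 to 3. It was the steadiest keratin, with a 1.48-fold range over libraries in which Krt12 varied 31.3-fold, and a log2 fold change of −0.31 (SE 0.268). Markers of skin were low. Of 14 skin and hair follicle markers 9 were in the table, and these summed to 16.8 to 24.7 CPM. The epidermal genes Lor and Krtdap were at or below 0.530 CPM in every library. Other members were higher, with S100a3 at 3.27 to 16.6 CPM and Lef1 at up to 13.3 CPM, in KO 3.

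Among hair types, Krt75, a type II keratin of the follicle companion layer, was the 1 gene tested. It was at 4.44, 2.43 and 0.801 CPM in KO 1 to 3 and at 8.79, 15.0 and 5.55 CPM in WT 1 to 3. The groups did not overlap, with KO 1 and WT 3 nearest, and its fold change on the log2 scale came to −1.93 (SE 0.734, adjusted p = 0.501). Relative to Krt12 it was level between genotypes, with log2 ratios of −11.44 ± 0.772 and −11.35 ± 0.761 (SD, n = 3 each). Krt90 was at 4.24, 2.23 and 0.493 CPM in KO 1 to 3 and at 5.60, 7.03 and 3.93 CPM in WT 1 to 3 (log2 fold change −1.25, SE 0.782).

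Krt222 was low in the same libraries as the retina markers, and the part of retina in its level was not tested. It was at 5.70, 3.58 and 6.41 CPM in KO 1 to 3 and in WT 3 at 7.42 CPM, but at 0.545 and 1.07 CPM in WT 1 and WT 2, where retina markers were low. Its log2 fold change was 0.79 (SE 1.01), −0.50 (SE 0.465) without WT 1 and WT 2, and 2.68 (SE 0.517, adjusted p = 0.0187 in edgeR) without WT 3. In the fit without WT 3, 21.1% of all genes tested passed as higher in the knockout. The 8 genes that did not pass the filter, Krt84, Krt76, Krt24, Krt32, Krt20, Krt36, Krt33a and Krt77, had 0 to 12 counts per library and mean TPM of at most 0.328, against a limit of 0.185 to 0.233 CPM that a count of 0 allows. Krt77 had counts of 0, 1 and 0 for KO 1 to 3 against 4, 2 and 3 for WT 1 to 3, so the groups did not overlap, at levels near or under that limit. With no filter on low counts, none of the 8 passed the test, and the smallest p was that of Krt77 (unadjusted p = 0.0368, adjusted p = 0.541 in edgeR). Among them were the hair and tongue keratins Krt84, Krt32, Krt36 and Krt33a, and Krt20 of intestinal epithelium.

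Genes whose products hold or control keratin filaments had mostly negative fold changes, and none passed the test; over all genes tested 48.5% lay below 0 and the median was 0.02. The keratin-free corneal epithelium markers, of which 11 of 12 lay below 0 with a median of −1.48, moved alike, and their part in these lists was not tested. Of 17 listed partners (desmosome, hemidesmosome and keratin-bundling proteins), 14 were tested, 0 passed, 12 had a log2 fold change below 0 and 2 above, and the median was −1.29. The hemidesmosome integrin Itgb4 was at 118, 158 and 41.4 CPM in KO 1 to 3 and at 449, 533 and 113 CPM in WT 1 to 3 (log2 fold change −1.79, SE 0.750), so WT 3 lay below KO 1 and KO 2. Plectin, Plec, which ties keratin to hemidesmosomes, was at −0.96 (SE 0.426). Of 16 listed regulators of epithelial and keratin genes, 14 were tested, 0 passed, 13 lay below 0 and 1 above, and the median was −1.23. Grhl1, a grainyhead-like factor of stratified epithelium, was at −1.23 (SE 0.512) and the AP-2 factor Tfap2c at −1.31 (SE 0.593).

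Intermediate filament genes that are not keratins were split. Of 16, all tested, 0 passed, 10 lay above 0 and 6 below, with a median of 0.76, against 48.5% below 0 over all genes tested. Some members known from other tissues differed between libraries much as the markers of those tissues did, and the part of those tissues was not tested. The neurofilament gene Nefl was at 164, 80.9 and 70.1 CPM in KO 1 to 3 and 125 CPM in WT 3, but at 0 and 0.853 CPM in WT 1 and WT 2. Bfsp1, a filament gene of lens, reached 1235 CPM in KO 2 and 105 CPM in WT 3 and was at most 26.6 CPM elsewhere. Bfsp2, also of lens, reached 775 CPM in KO 2 and 131 CPM in WT 3 and was at most 35.4 CPM elsewhere. Desmin, Des, of muscle was at 141 and 134 CPM in WT 1 and WT 2 and at 8.29 to 49.2 CPM in the other 4 libraries. The nuclear lamins Lmna and Lmnb1 were at −0.78 (SE 0.361) and −1.04 (SE 0.524). Lmna was at 65.4, 78.9 and 74.3 CPM in KO 1 to 3, at 153 and 157 CPM in WT 1 and WT 2 and at 65.7 CPM in WT 3, so WT 3 was at the knockout level.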

How the data were processed

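The 6 libraries were grouped by the genotype in their titles. The authors deposited 1 table with expected counts (estimated reads per gene, not normalized), TPM, FPKM and a signal of scaled counts. FPKM, the scaled-count signal and the 8 columns of group means were not used. The submitters' processing notes name GRCm38 (mm10); the aligner, the counting program and strand use are not stated there. Library preparation used an mRNA kit, per the labels' protocols. Counts were not whole in up to 1217 genes per library, 5 keratins among them (Krt5, Krt6a, Krt6b, Krt14 and Krt16), and were rounded.

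The fit used all genes: edgeR 4.0.16 quasi-likelihood test in R 4.3.3, genotype as the only term, TMM scaling, filterByExpr and Benjamini-Hochberg adjustment over all 14983 genes tested. SE was obtained as the log2 fold change over sqrt(F). A second fit scaled each library to its Krt12 count. Ratios per library used a prior count of 0.5. The comparison was also run with DESeq2 1.42.0 and limma 3.58.1. Gene coordinates and coding sequences are from GENCODE M21, and promoters from RefSeq on GRCm38.p6. No library repeats another: the chi-square per gene averaged 43.4 to 547 over pairs.

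Keratin classes, marker lists and members were chosen with earlier results of these data known. Genes named were Krt12, Krt5 and Krt14 and the 4 keratins with the highest mean TPM in each class. Added to these were the 3 keratins with the smallest p in each direction in each fit. The 2 genes with the smallest p were named from each of the partner, regulator and other intermediate filament lists. Other genes named fall outside this rule and were chosen after their values were seen. They include Krt7, Krt10, Krt17, Krt19, Krt77, Nefl, Bfsp1, Bfsp2, Des, Rpe65, Rlbp1 and the named conjunctiva, gland and skin markers. Intervals and limits cover counting error only.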

Additional observations from a re-analysis of the deposited data

How the results depend on the processing

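No keratin passed in the comparison of genotypes with scaling by library size alone or by size factors of DESeq2, without a filter, with 1 CPM in 3 libraries as filter, with limma-voom, with the replicate block or without WT 1 and WT 2; the DESeq2 Wald test called 1 (Krt16). Leaving out 1 library at a time gave 0 to 6 calls, the 6 without WT 3 (Krt1, Krt14, Krt16 and Krt17 lower, Krt18 and Krt222 higher), where 5150 of 15143 genes passed. Relative to Krt12, limma on log2 ratios called 1 (Krt18, 5.20, adjusted p = 0.0105), where 1574 of 14982 genes passed. Leaving out 1 library gave 0 to 2 calls, the 2 without WT 3 (Krt18 and Krt8), where 1920 of 15142 genes passed. Whether the replicate numbers pair the libraries was not settled. Same-numbered deviations correlated at 0.0905, 0.363 and 0.189, and the other pairs at −0.288 to 0.181. Each knockout library correlated best with the wild-type library of its number. With the replicate block the count was 0 for the comparison of genotypes and 5 relative to Krt12 (Krt18, Krt8, Krt222, Krt7 and Krt4, all higher), where 11430 of 14982 genes passed. Without WT 1 and WT 2 the log2 fold change turned to 0.49 for Krt14, 0.68 for Krt15, 0.46 for Krt13, 1.68 for Krt4, 0.12 for Krt6b and −0.50 for Krt222, and relative to Krt12 to −0.41 for Krt90. Krt23 was at 0.0735 with library size alone. With all keratins as reference Krt5 was at −0.0899, Krt90 at −0.0567 and Krt6a at −0.0502. With 1 library left out, Krt4 ran from −0.89 to 0.32 and Krt23 from −0.78 to 0.48, and relative to Krt12 Krt75 ran from −0.57 to 0.18, Krt78 from −0.53 to 0.11, Krt90 from −0.0633 to 0.72 and Krt1 from −0.0358 to 2.23. The cause was not tested. Class sums in TPM in place of CPM moved by less than the spread between libraries. Depth limits the 8 keratins under the filter.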
